A study of Mus musculus with 14 samples.

Results

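A set of 10 genes that mark retinal macroglia were followed: Rlbp1, Slc1a3, Glul, Kcnj10, Aqp4, Car14, Vim, Gfap, Dkk3 and Clu. They were chosen by name, and all 10 were found, 1 row each, among the 20902 genes of the table. Mueller glia are the radial glia of the retina and span its whole thickness, whereas astrocytes enter along the optic nerve and lie on the inner surface with the vessels. Mueller glia carry a retinaldehyde-binding protein, take up glutamate and convert it to glutamine, and pass potassium and water from the neural tissue towards vessels and vitreous. In stressed retina they raise their intermediate filaments. Several of the 10 genes are also used by other cells, Vim and Dkk3 among them in retinal progenitors.

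RNA was sequenced from 14 libraries of C57BL/6 mice, of 2 kinds. Microglia, which are resident macrophages, came from retinas of Cx3cr1-GFP mice and were sorted as GFP+, CD45+, CCR2- cells. Their 9 libraries comprise 3 from embryos at day 16.5 (e16.5), 3 from pups at postnatal day 7 (P7) and 3 from adults at postnatal day 60 (P60). Each microglia library pooled animals: 1 to 2 litters at e16.5, 5 to 12 retinas at P7 and 7 to 14 retinas at P60. Whole retina came from mice of genotype WT, with 3 libraries at e16.5, taken from central retina, and 1 library each at P7 and P60. Microglia libraries were made from low-input RNA with the NuGEN Ovation RNA-seq System v2, and for whole retina the kit was not named in the labels. Tissue, sorting and genotype differed together between the 2 kinds of library, as did the RNA extraction kit (RNeasy Plus Micro for microglia, RNeasy Plus Mini for retina), and their effects cannot be told apart. At e16.5 the use of central retina adds to this. The labels call the microglia libraries biological replicates but say no such thing of the retina at e16.5, where p-values may measure technical spread alone.

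Depth ran from 8996298 to 17446905 counts in microglia and from 20469100 to 24361772 in whole retina. The 12 microglia markers summed to 12113 to 22354 CPM (counts scaled to a common library size) in every sorted library and to 61.2 to 83.5 CPM in whole retina. Monocyte markers were present as well: the 6 summed to 38.9 to 138 CPM in sorted libraries and 0.569 to 2.17 CPM in retina. Ccr2, which the sort selected against, was at 10.9 ± 3.25 CPM at e16.5, 11.3 ± 8.20 CPM at P7 and 10.6 ± 2.92 CPM at P60 in microglia (SD, n = 3). Values below are CPM scaled by TMM over the 14 libraries, and 3 counts, the limit that a count of 0 allows, corresponded to 0.202 to 0.293 CPM in a microglia library. CPM follows read number, so levels of different genes are set against each other only in FPKM, which divides by length. Gene positions are those of GENCODE M21 on GRCm38.

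Of the 10 genes, 7 have a start site in the RefSeq promoter table (GRCm38.p6), from which the 200 bases between 250 and 51 bases before the start were read, 5′ to 3′ on the gene's strand. Those of 4 are shown, for the genes on which the results turn: Rlbp1 and Slc1a3, which rose in sorted microglia, Kcnj10, which had the higher mean in microglia than in retina at all 3 ages, and Gfap, which was nearly missing from microglia. Capitals mark the motifs found.
Rlbp1, chr7:79387078-79387277, minus strand: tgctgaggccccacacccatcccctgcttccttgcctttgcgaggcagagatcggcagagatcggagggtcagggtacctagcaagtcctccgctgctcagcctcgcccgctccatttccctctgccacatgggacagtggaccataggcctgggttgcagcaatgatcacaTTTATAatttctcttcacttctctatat
Slc1a3, chr15:8710858-8711057, minus strand: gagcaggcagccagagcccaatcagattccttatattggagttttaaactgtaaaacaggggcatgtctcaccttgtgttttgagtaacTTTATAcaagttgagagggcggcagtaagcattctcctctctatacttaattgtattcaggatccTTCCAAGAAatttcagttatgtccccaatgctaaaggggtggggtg
Gfap, chr11:102897251-102897450, minus strand: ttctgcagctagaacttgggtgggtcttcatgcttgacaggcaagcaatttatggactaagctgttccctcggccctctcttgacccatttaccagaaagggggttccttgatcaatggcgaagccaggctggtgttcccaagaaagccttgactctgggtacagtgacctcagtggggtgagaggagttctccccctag
Kcnj10, chr1:172340960-172341159, plus strand: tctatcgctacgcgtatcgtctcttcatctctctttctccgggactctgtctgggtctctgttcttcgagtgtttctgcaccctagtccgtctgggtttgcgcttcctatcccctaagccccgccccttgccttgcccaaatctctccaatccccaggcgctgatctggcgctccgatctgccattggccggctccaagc
The windows were searched on both strands for 6 strings. The string TATAAA, the letters of a core promoter element, was found as its reverse complement TTTATA in Rlbp1 and Slc1a3. It is in 9.14% of 32851 promoter windows of the same length. TTCNNNGAA, the palindromic core bound by STAT factors, was found in Slc1a3 and in 5.76% of windows. TAATCC, bound by the photoreceptor factor CRX, was found in Car14 (5.22%), and GAGGAA, bound by PU.1, in Glul and Vim (18.8%). AACAAT (SOX factors, 7.96%) and TGANTCA (AP-1, palindromic, 5.57%) were in none of the 7 windows. A match describes the letters only. The windows of Gfap and Vim lie inside the GENCODE spans of these genes, not upstream of them. Those of Glul and Vim each overlap 1 GENCODE exon.

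In whole retina the genes took separate courses with age. Rlbp1, Kcnj10, Aqp4, Gfap and Clu were more than 10-fold higher at P60 than at e16.5, and Glul and Car14 2.63-fold to 3.69-fold higher. Vim was lower at each later age, Dkk3 was lowest at P7, and Slc1a3 stayed within 2-fold. With 1 library at P7 and at P60 there is no test, and a gene was counted where the ratio of CPM, after adding 0.1 CPM, passed 2-fold. From e16.5 to P60, 7 of the 10 genes were higher and 1 was lower, together 8, against 27.3%, 20.7% and 48.0% of all 20902 genes. The median log2 ratio was 2.87 for the 10 genes and 0.05 for all genes. From e16.5 to P7, 5 were higher (23.1% of all genes) and 2 lower (13.0%), or 7 in all (36.0%). From P7 to P60, 7 were higher (11.4%) and 1 lower (12.0%), or 8 in all (23.4%). Scaling by total counts alone left 5 of those 8 past 2-fold, with Gfap, Dkk3 and Car14 just under it. In bulk tissue, more cells of a type and more RNA per cell cannot be told apart. Markers of the retinal pigment epithelium rose in the same retina libraries. Their sum was 42.7, 9.30 and 30.8 CPM at e16.5, 86.1 CPM at P7 and 217 CPM at P60. The part of that epithelium's RNA in the course of Rlbp1 or of any other of the genes was not tested. The e16.5 libraries were taken from central retina, so the region sampled may differ with age and cannot be told apart from it.

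**Figure D1:**
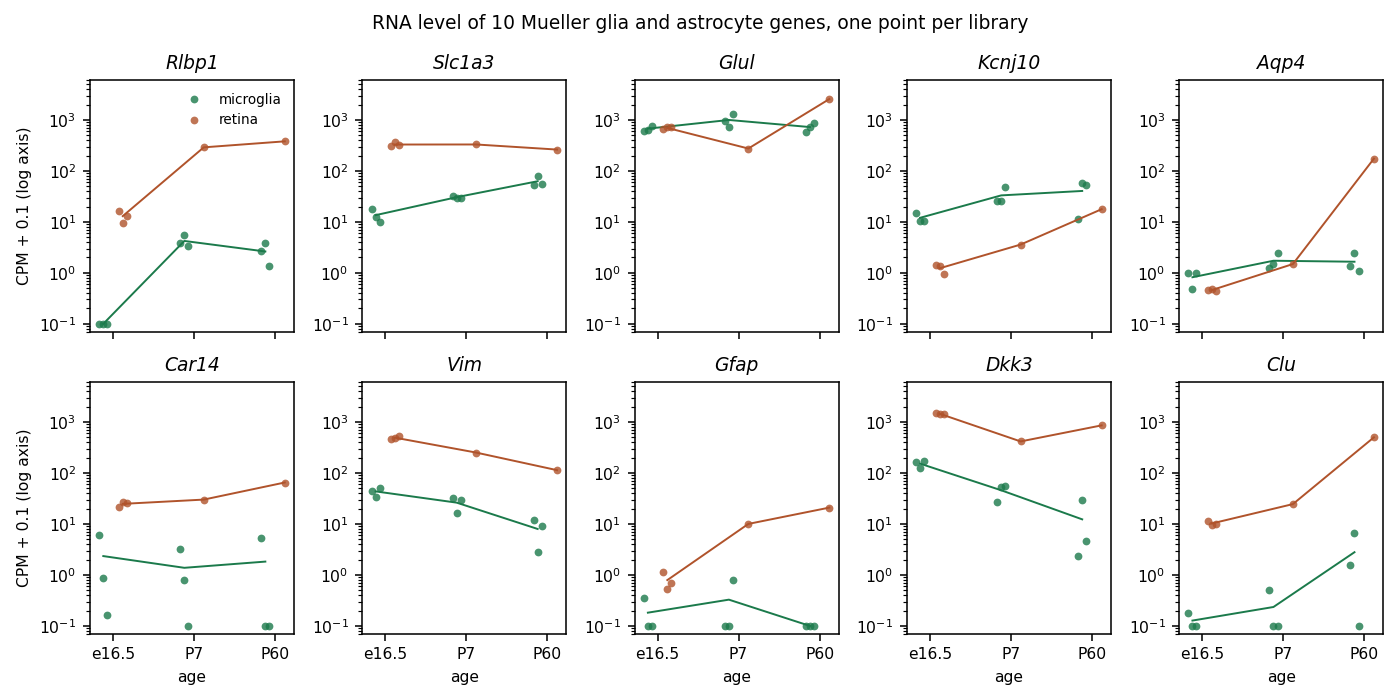
RNA level (CPM + 0.1, log axis) of each gene by age, 1 point per library, with lines through group means for sorted microglia (green) and whole retina (brown). Points at the lowest level are libraries with 0 counts. Rlbp1, Clu, Aqp4 and Gfap climbed in retina far above microglia, Kcnj10 stood above retina in microglia at e16.5 and P7, and Slc1a3 moved towards the retina level with age.

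Rlbp1 (ENSMUSG00000039194, chr7:79374870-79387048, minus strand) encodes the cellular retinaldehyde-binding protein, which holds 11-cis retinoids for regeneration of visual pigment. In whole retina it stood at 16.2, 9.44 and 13.0 CPM at e16.5, at 289.7 CPM at P7 and at 380.0 CPM at P60. Most of its 29.3-fold difference between e16.5 and P60 was thus present by P7, where it was 22.3-fold higher, and P60 was only 1.31-fold above P7. In sorted microglia it was at 0 in all 3 libraries at e16.5, at 3.73, 5.43 and 3.21 CPM at P7, and at 2.54, 3.78 and 1.25 CPM at P60. The e16.5 libraries did not overlap with either later age. Set against the limit for 0 counts, averaged over the 3 libraries, the level was at least 18.3-fold higher at P7 and at least 11.2-fold higher at P60. Retina at e16.5 was at least 57.0-fold above microglia. As a share of retina of the same age, microglia held 1.42% ± 0.401 (SD, n = 3) at P7 and 0.664% ± 0.333 (SD, n = 3) at P60.

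Slc1a3 (ENSMUSG00000005360, chr15:8634124-8710764, minus strand) encodes GLAST, the glutamate transporter of Mueller glia. Whole retina held 301, 361 and 324 CPM at e16.5, 329.9 CPM at P7 and 262 CPM at P60, a range within 2-fold. Microglia held 17.8, 12.5 and 10.03 CPM at e16.5, 32.8, 28.7 and 29.7 CPM at P7, and 53.3, 80.3 and 54.1 CPM at P60. No microglia library of one age overlapped with those of another. Relative to retina of the same age the microglia level went from 4.08% ± 1.203 (SD, n = 3) at e16.5 to 9.21% ± 0.643 (SD, n = 3) at P7 and 23.9% ± 5.87 (SD, n = 3) at P60. In FPKM these shares were 10.1%, 20.5% and 52.7%. The length used for Slc1a3 was 0.344 to 0.729 times as long in microglia libraries as in retina. It was read from counts over FPKM, relative to the median gene of the library. On this measure Aqp4, Dkk3 and Kcnj10 shared ratios of 0.846 to 0.956. Part of each ratio may thus be a shift common to the library.

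Glul (ENSMUSG00000026473, chr1:153899944-153909723, plus strand) encodes glutamine synthetase, which turns the captured glutamate and ammonia into glutamine. Retina held 655, 725 and 711 CPM at e16.5, 275 CPM at P7 and 2569 CPM at P60. It was 2.54-fold lower at P7 than at e16.5 and 9.35-fold higher at P60 than at P7. Microglia held 618, 646 and 757 CPM at e16.5, 965, 719 and 1310.1 CPM at P7, and 592, 717 and 864 CPM at P60, and the ages overlapped. Glul was the most abundant of the 10 genes per length in sorted microglia, with 269.6 ± 24.6 FPKM in embryos, 420.4 ± 116 FPKM in pups and 345 ± 54.0 FPKM in adults (SD, n = 3).

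Kcnj10 (ENSMUSG00000044708, chr1:172341210-172374085, plus strand) encodes Kir4.1, the inward rectifier through which Mueller glia buffer potassium. Retina rose from 1.31, 1.23 and 0.835 CPM at e16.5 to 3.49 CPM at P7 and 17.6 CPM at P60, a 14.4-fold difference in all. Microglia held more at the 2 younger ages: 15.1, 10.2 and 10.5 CPM at e16.5 and 25.9, 25.1 and 47.8 CPM at P7. At P60 they held 11.3, 57.7 and 51.9 CPM, with replicate 1 below the retina library and the other 2 above it. The microglia level was 1058% ± 242 (SD, n = 3) of retina in embryos, 946% ± 369.6 in pups and 229% ± 143 in adults.

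Aqp4 (ENSMUSG00000024411, chr18:15389496-15410982, minus strand), the water channel of glial endfeet, was the gene with the steepest course in retina. It was at 0.353, 0.380 and 0.344 CPM at e16.5, at 1.39 CPM at P7 and at 174 CPM at P60, which is 379-fold above e16.5 and 117-fold above P7. In microglia it stayed at 0.383 to 0.901 CPM at e16.5, 1.14 to 2.39 CPM at P7 and 0.979 to 2.40 CPM at P60. All 9 of these libraries lay above the limit for 0 counts, and at e16.5 all 3 lay above the 3 retina libraries. The e16.5 values rest on 11, 5 and 13 counts in microglia and 7, 8 and 7 counts in retina. Aqp4 was under the count filter in that comparison and was not tested. At P60 microglia held 0.892% ± 0.433 (SD, n = 3) of the retina level.

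Car14 (ENSMUSG00000038526, chr3:95897768-95904691, minus strand) encodes a membrane-bound carbonic anhydrase that takes part in pH control around Mueller glia and photoreceptors. Retina held 21.7, 27.0 and 25.4 CPM at e16.5, 30.0 CPM at P7 and 65.0 CPM at P60. In microglia 1 library of each age carried most of it: 5.90, 0.767 and 0.0673 CPM at e16.5, 3.16, 0.679 and 0 CPM at P7, and 5.18, 0 and 0 CPM at P60. Its mean in microglia therefore rests on replicate 1 at every age. The gene overlaps Aph1a on the other strand, and Glul overlaps Teddm2 in the same way; the labels do not say whether the counting used strand.

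Vim (ENSMUSG00000026728, chr2:13573927-13582826, plus strand) encodes vimentin, the filament of radial glia and progenitors. It fell with age in retina, from 458, 491 and 531 CPM at e16.5 to 252 CPM at P7 and 114 CPM at P60, which is 4.34-fold below e16.5. Microglia went the same way at a lower level, with 45.1, 34.0 and 51.4 CPM at e16.5, 32.9, 16.1 and 29.3 CPM at P7, and 11.8, 2.66 and 9.16 CPM at P60. The P60 libraries all lay below those of both earlier ages, and their level was 6.94% ± 4.15 (SD, n = 3) of retina.

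Gfap (ENSMUSG00000020932, chr11:102887336-102900912, minus strand), the filament of astrocytes and of reactive Mueller glia, ran opposite to Vim in retina. It was at 1.06, 0.427 and 0.590 CPM at e16.5, at 9.93 CPM at P7 and at 20.9 CPM at P60, 26.5-fold above e16.5. In microglia 2 of 9 libraries had any count: 0.246 CPM in replicate 1 at e16.5 and 0.683 CPM in replicate 3 at P7. At e16.5 the summed counts were 42 in retina and 3 in microglia, a ratio of 9.17 with a 95% exact counting interval of 2.93 to 46.2. At P60 all 3 microglia libraries were at 0, so the retina level was at least 76.5-fold higher.

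Dkk3 (ENSMUSG00000030772, chr7:112116017-112159057, minus strand) encodes a secreted member of the Dickkopf family, whose other members inhibit Wnt signalling. Retina held 1471, 1458 and 1439 CPM at e16.5, 416 CPM at P7 and 860.1 CPM at P60, so it was 3.50-fold lower at P7 than at e16.5 and 2.07-fold higher again at P60. Microglia held 162, 126 and 169 CPM at e16.5, 26.6, 54.2 and 56.4 CPM at P7, and 2.25, 29.9 and 4.54 CPM at P60. The e16.5 libraries were all above the later ones, and replicate 2 stood apart at P60, at the level of P7. Without it the P60 mean comes from values of 2.25 and 4.54 CPM.

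Clu (ENSMUSG00000022037, chr14:65968483-65981547, plus strand) encodes clusterin, a secreted chaperone and lipoprotein component. Retina held 11.1, 9.49 and 9.83 CPM at e16.5, 24.4 CPM at P7 and 501 CPM at P60, 48.9-fold above e16.5. Microglia had 1 count in all at e16.5, against 620 in retina, a ratio of 406 with a 95% exact counting interval of 72.6 to 16100. At P7 only replicate 1 held any, 0.405 CPM, and at P60 the libraries held 1.47, 6.61 and 0 CPM.

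Per length, the order of the 10 genes in retina changed with age. At e16.5 it ran Glul (749 ± 64.7 FPKM), Vim (564 ± 55.2), Dkk3 (401 ± 3.65), Slc1a3 (103 ± 7.89) and Car14 (18.1 ± 2.14, SD, n = 3), and none of these neighbours overlapped. Rlbp1 (7.54 ± 2.28 FPKM) and Clu (7.37 ± 1.15) overlapped, as did Gfap (0.317 ± 0.141) and Kcnj10 (0.187 ± 0.0419), and Aqp4 was last at 0.0637 ± 0.00358 FPKM (SD, n = 3). At P60 the order was Glul (2661 FPKM), Clu (381), Dkk3 (250.01), Rlbp1 (230.1), Vim (139.5), Slc1a3 (81.9), Car14 (47.9), Aqp4 (32.5), Gfap (12.6) and Kcnj10 (3.09). Clu thus went from rank 7 to rank 2 and Vim from rank 2 to rank 5. In microglia Glul led at each age, and Slc1a3 went from rank 4 at e16.5 (10.4 ± 4.45 FPKM) to rank 2 at P60 (43.1 ± 19.0, SD, n = 3), clear of Vim (12.7 ± 8.44).

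The next comparison asks which of these genes changed in sorted microglia as they matured. Between e16.5 and P60, Rlbp1 and Slc1a3 rose and Dkk3 and Vim fell. The edgeR quasi-likelihood test with Benjamini-Hochberg adjustment over 16019 genes called 4 of the 8 genes tested, against 3.36% of all genes. The 2 that rose compare with 0.861% of all genes and the 2 that fell with 2.5%. Gfap and Clu did not pass the filter on low counts and were not tested. Slc1a3 rose by 2.23 on the log2 scale (SE 0.423, adjusted p = 0.0176), which is 4.70-fold and was seen in all 3 libraries. Rlbp1 rose with an adjusted p of 0.0191, and its size is the bound given above. Dkk3 fell by 3.62 (SE 0.808, adjusted p = 0.0333), or 12.3-fold, and Vim fell by 2.45 (SE 0.598, adjusted p = 0.0476), or 5.46-fold.

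The remaining 4 tested genes did not pass at P60 against e16.5. Kcnj10 had a log2 difference of 1.78 (SE 0.61, adjusted p = 0.133), Glul 0.12 (0.822), Aqp4 1.11 (0.547) and Car14 -0.39 (0.932). The median over the 8 genes was 0.62, and 0.06 over all genes tested. These calls sat close to the threshold. Without microglia e16.5 replicate 2 or replicate 3 none of the 4 passed, without e16.5 replicate 1 or P7 replicate 2 or 3 Rlbp1 and Slc1a3 did, and without P7 replicate 1 Slc1a3 did. Without P60 replicate 2 Rlbp1 and Dkk3 passed, the latter with a fall of 5.47, and without P60 replicate 3 Rlbp1 and Slc1a3. A fit of the e16.5 and P60 libraries alone called none of the genes, and with gene length as an offset only Rlbp1 passed.

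**Figure D2:**
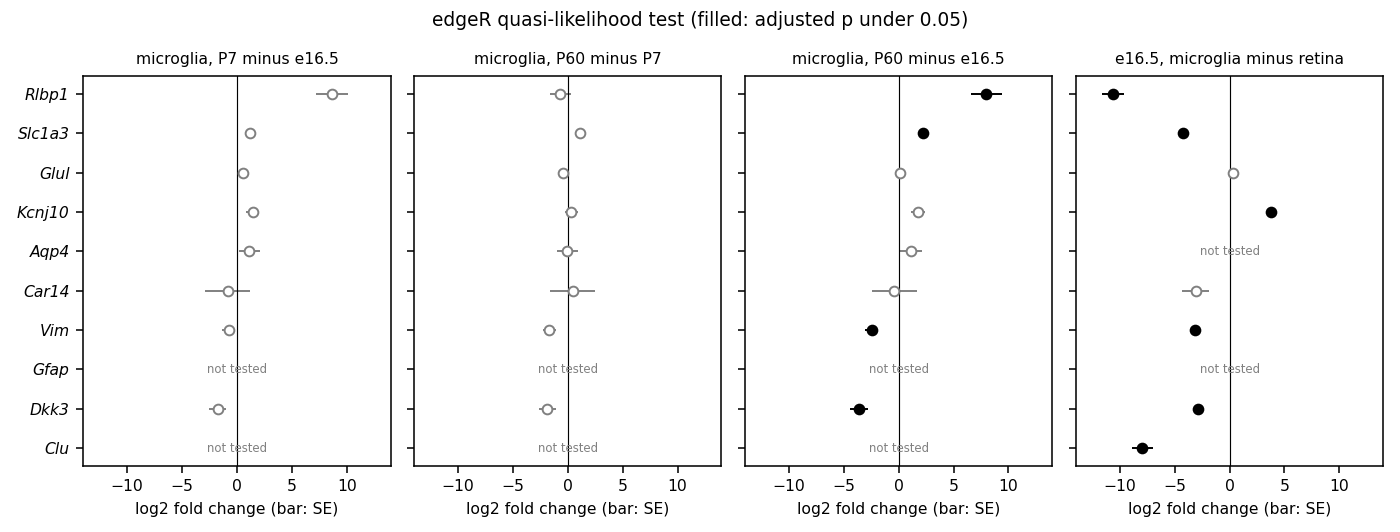
Log2 fold change with its SE from the edgeR quasi-likelihood test for the 3 age comparisons in microglia and for microglia minus retina at e16.5. Filled points have an adjusted p under 0.05, and genes under the count filter are marked as not tested. In the P60 minus e16.5 panel Rlbp1 and Slc1a3 lie to the right and Dkk3 and Vim to the left, and at e16.5 Kcnj10 alone is filled on the right. The size for Rlbp1, and that for Clu at e16.5, depend on how 0 counts are handled and are no estimate.

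In the edgeR test the single steps gave no calls for these genes. Between e16.5 and P7, 0 of the 8 tested passed the edgeR test, against 0.2% of all genes (0.131% higher and 0.0687% lower). Rlbp1 came nearest (adjusted p = 0.0602), followed by Slc1a3 with 1.15 on the log2 scale (adjusted p = 0.488), Kcnj10 with 1.44 (0.596) and Dkk3 with -1.75 (0.609). Between P7 and P60, again 0 of 8 passed, against 1.35% of all genes (0.262% higher and 1.09% lower). Vim had -1.69 (adjusted p = 0.181), Slc1a3 1.08 (0.21) and Dkk3 -1.86 (0.24). Over all genes 1245 had an unadjusted p under 0.05 in the first step and 2687 in the second. DESeq2 called Rlbp1 in the first step and Vim in the second. The authors' deposited table has 1 of the 10 genes under 0.05 in each step. In the first it is Rlbp1 (adjusted p = 2.92e-08), against 3.57% of genes with a value. In the second it is Clu (adjusted p = 0.0286), which edgeR did not test, against 11.6%. With total counts alone as the scaling, the split of all called genes was 61 higher and 99 lower in the second step, against 42 and 175, and 189 and 301 from e16.5 to P60, against 138 and 400.

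Markers of other retinal cells were measurable in the same sorted libraries and moved with age too. The 15 rod markers summed to 28.1 to 57.1 CPM in microglia at e16.5, 399 to 522 CPM at P7 and 824 to 5224 CPM at P60, and 13 of the 15 rose between e16.5 and P60 in the edgeR test. In retina their sum was 51.1 to 57.2 CPM at e16.5, 11802 CPM at P7 and 70175 CPM at P60, and Nr2e3 was at 0 in microglia at e16.5. At e16.5 the microglia libraries held 80.4%, 107% and 52.6% of the retina rod level. Of 12 rod markers tested between microglia and retina at that age, 5 were higher in microglia and 3 lower. The background was 33.1% of all genes higher and 30.1% lower. Whether rods were the source of this RNA was not tested. At P60 the 3 microglia libraries held 2.31%, 7.44% and 1.17% of the retina rod level, with replicate 2 highest, as it was for Rlbp1, Slc1a3, Kcnj10, Aqp4, Dkk3 and Clu. The 15 progenitor markers went the other way, from 553 to 614 CPM at e16.5 to 123 to 219.7 CPM at P7 and 107 to 167 CPM at P60, and 6 of the 15 fell. In retina they went from 7587 to 8055 CPM to 528 CPM. Atoh7, Neurog2 and Olig2 were at 0 in microglia at P60. The part of these other cells' RNA in the rise of Rlbp1 and Slc1a3 and in the fall of Dkk3 and Vim was not tested.

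**Figure D3:**
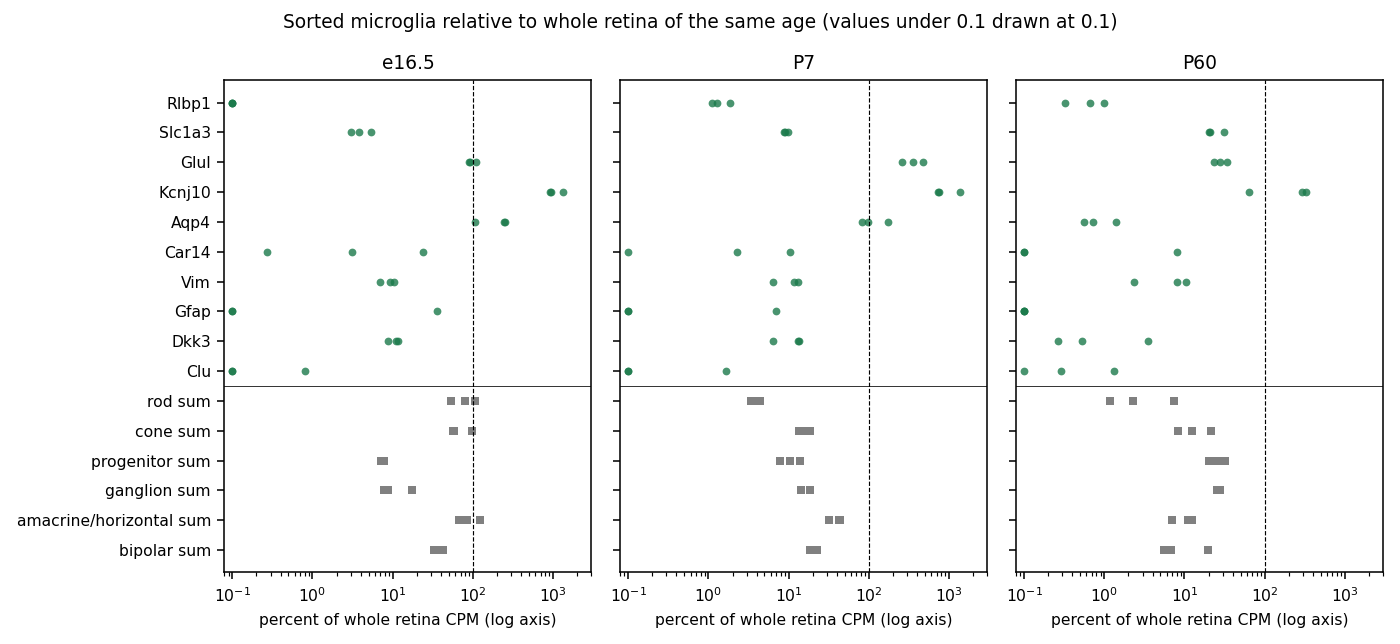
Level in each sorted microglia library as a percent of whole retina of the same age (log axis, values under 0.1 drawn at 0.1), for the 10 genes (circles) and for summed markers of 6 other retinal cell types (squares). The dashed line is equality. At P60 Kcnj10 stands at 64.4% to 327%, Slc1a3 at 20.3% to 30.7% and Glul at 23.0% to 33.6%, while Rlbp1, Aqp4 and Clu lie at or below 1.38% and the rod sum between 1.17% and 7.44%. The other marker sums stand at 5.59% to 31.7% at that age.

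The shares of retina differed widely between the 10 genes within the same libraries. At P60 Slc1a3 at 23.9% and Glul at 28.2% ± 5.30 (SD, n = 3) lay above the rod share in every library. Kcnj10 did so too. Rlbp1, Aqp4, Clu, Gfap and Dkk3 lay below it in every library. Vim lay above it in replicates 1 and 3 and below it in replicate 2, and Car14 lay above it in replicate 1 alone. The median share over the 10 genes was 2.04% in adults, against 9.77% in embryos and 9.79% in pups.

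At e16.5, where retina had replicates, microglia were tested against retina. At that age 5 genes were lower in microglia (Slc1a3, Vim, Dkk3, Rlbp1 and Clu) and Kcnj10 was higher. The edgeR test called 6 of the 8 genes tested, against 63.2% of all 16140 genes, a share near that of any gene. Of these, 1 was higher, against 33.1% of all genes, and 5 were lower, against 30.1%. Kcnj10 was higher by 3.76 on the log2 scale (SE 0.481, adjusted p = 0.000648), or 13.6-fold, in 3 of 3 libraries. Slc1a3 was 19.0-fold lower (log2 difference -4.25, SE 0.268, adjusted p = 3.15e-05). Vim was 8.79-fold lower (adjusted p = 3.53e-05) and Dkk3 7.41-fold lower (adjusted p = 2.57e-05). Rlbp1 (adjusted p = 0.000691) and Clu (adjusted p = 0.000471) were lower by the sizes given above. These 6 passed under all 14 alternative settings tried.

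Glul and Car14 did not pass at e16.5. Car14 had a log2 difference of -3.10 (SE 1.22, adjusted p = 0.0595) and passed in 6 of 14 alternatives, with -5.62 without microglia replicate 1. For Glul the sign depended on length. On counts the log2 difference was 0.32 (SE 0.15, adjusted p = 0.102), and with gene length as an offset it was -1.13 (adjusted p = 0.00194). The authors' deposited table gives -1.47 (adjusted p = 8.57e-07). On the measure described for Slc1a3, the length used for Glul was 2.69 to 2.79 times as long in microglia as in retina at e16.5. Its microglia level was 96.7% ± 10.6 of retina in CPM and 36.0% ± 3.29 in FPKM (SD, n = 3). Aqp4 and Gfap were under the count filter. The median over the 8 genes was -3.12, and -0.13 over all genes tested.

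At P7 and P60 the 3 microglia libraries were set against 1 retina library each, without a test. At P7, 7 of the 10 genes were more than 2-fold lower in microglia (36.0% of all genes) and 2 were higher (30.9%), with 66.9% of all genes past 2-fold: Kcnj10, 9.22-fold, and Glul, 3.63-fold. In FPKM the Glul level was 148% ± 40.8 of retina (SD, n = 3), within 2-fold. Its length was 2.33 to 2.64 times as long in microglia on the same measure. Aqp4 was within 2-fold. At P60, 9 were lower (35.9%) and 1, Kcnj10, was higher by 2.28-fold (33.7%), with 69.6% of all genes past 2-fold. The excess of Kcnj10 fell under 2-fold without microglia P60 replicate 2 (log2 ratio 0.84) or replicate 3 (0.97). The largest gap of a gene with counts in all microglia libraries was that of Rlbp1, 145-fold, followed by Aqp4, 105-fold. In CPM the smallest were those of Glul, 3.55-fold, and Slc1a3, 4.18-fold. In FPKM their order turned: Glul was at 13.0% ± 2.03 of retina and Slc1a3 at 52.7% ± 23.2 (SD, n = 3), the latter with a log2 ratio of -0.92 and so no longer past 2-fold. At P7 the authors' deposited table gives adjusted p = 0.000463 for Kcnj10 and 0.276 for Glul. At P60 the authors' deposited table gives 0.199 for Kcnj10 and 0.217 for Slc1a3, and 7 of the 10 genes have adjusted p under 0.05 there, against 38.1% of all genes with a value. For microglia from e16.5 to P60 the authors' deposited table has 6 of the 10 genes under 0.05 (Rlbp1, Slc1a3, Dkk3, Kcnj10, Vim and Clu), against 15.4% of genes.

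**Figure D4:**
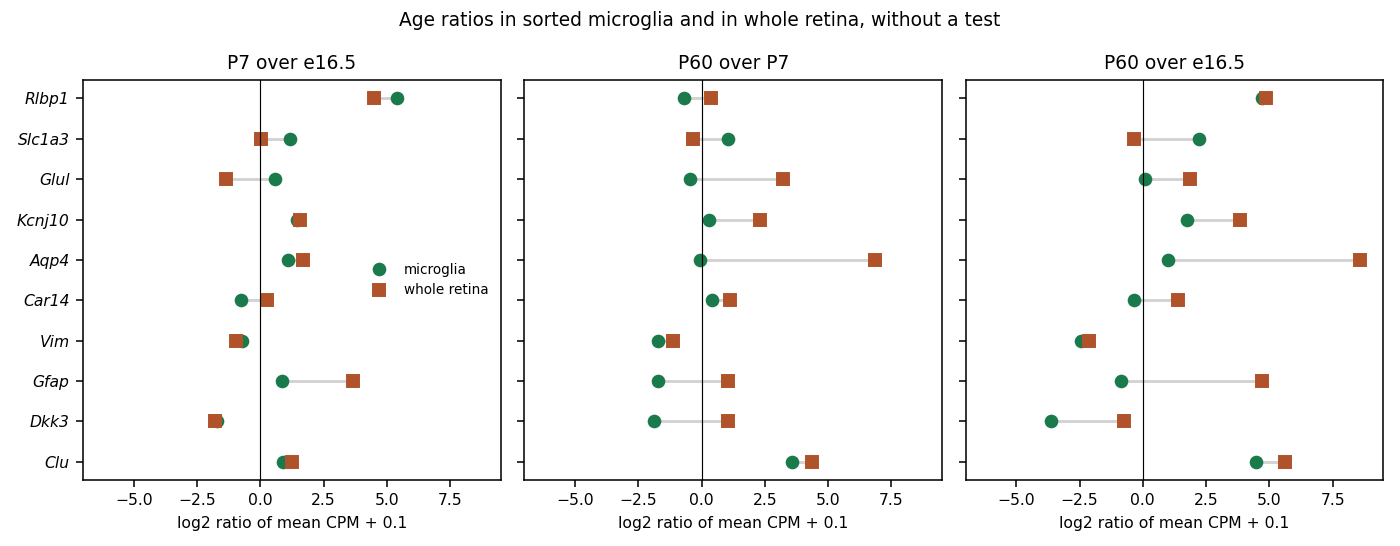
Log2 ratio of mean CPM + 0.1 between ages for each gene in sorted microglia (green circles) and whole retina (brown squares), drawn without error because retina has 1 library at P7 and P60. Vim lies left of 0 in both tissues in all panels. Slc1a3 lies right of 0 in microglia and left of it in retina in the 2 panels that involve P60, and Aqp4 shows the widest gap.

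The genes that accompany the 10 in their pathways were taken from lists and counted by the same tests. In whole retina from e16.5 to P60, 11 of 14 genes of potassium, water and pH transport were more than 2-fold higher and 1 lower, as were 7 of 10 of glutamate transport and recycling with 0 lower and 5 of 7 of lipoprotein handling with 0 lower. The background was 27.3% higher and 20.7% lower. Of 16 gliosis genes, 10 were higher and 3 lower. Of 18 further Mueller glia genes 8 were higher and 7 lower, and of 11 further astrocyte genes 6 and 3. Of 11 Wnt inhibitors and receptors 3 were higher and 5 lower, of 10 filament genes 3 and 3, and of 10 retinoid genes 4 and 1.

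In sorted microglia between e16.5 and P60, 0.861% of all genes tested rose and 2.5% fell, and the counts of these lists stand against those shares. Of 16 further Mueller glia genes tested, 2 fell and 0 rose: Lhx2, a homeodomain factor of progenitors and Mueller glia, went from 20.0 to 0.346 CPM (adjusted p = 0.0116), and Spc25, a kinetochore gene, from 38.1 to 3.89 CPM (adjusted p = 0.0449). Of 8 astrocyte genes 1 fell, Nes, the intermediate filament nestin, from 460.1 to 41.6 CPM (adjusted p = 0.00078). Of 9 filament genes 2 fell, Nes again and Ina, the neuronal filament internexin, from 65.9 to 0.376 CPM (adjusted p = 0.00562). Of 9 Wnt genes 1 fell, Sfrp2, a secreted Wnt antagonist that is also among the progenitor markers, from 23.9 CPM to 1 count in all.

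In the lipoprotein list, Apoe and Abca1 rose by P7 and fell by P60. Apoe, the main lipid carrier of glia, stood at 431 CPM at e16.5, 2054 CPM at P7 and 127 CPM at P60, rising 4.69-fold (adjusted p = 0.0162) and then falling 15.7-fold (adjusted p = 0.000292). Abca1, which loads lipid onto it, went from 822 to 3115 to 242 CPM, rising 3.72-fold (adjusted p = 0.0377) and falling 12.5-fold (adjusted p = 0.000454). Of 7 genes on that list 2 rose by P7, against 0.131% of all genes, 2 fell from P7 to P60, against 1.09%, and 2 fell from e16.5 to P60, against 2.5%. Slc12a2, a sodium-potassium-chloride cotransporter, was the 1 of 11 transport genes to rise by P7, 3.51-fold (adjusted p = 0.0377). It then fell 5.26-fold from P7 to P60 (adjusted p = 0.00478), and none of the 11 passed between e16.5 and P60, where Slc12a2 and Kcnj2 were the most abundant. Of 10 glutamate genes 1 rose by P60, Slc17a7, the vesicular transporter of rods and bipolar cells, from 1 count in all at e16.5 to 16.6 CPM. Of 11 gliosis genes Cebpd, a transcription factor of inflammatory responses, rose 9.86-fold (adjusted p = 0.00574), and Gap43, a growth cone protein that is also a ganglion cell marker, fell to 1 count in all. None of 6 retinoid genes passed. Of these, Degs1 was the most abundant at both ages, with 56.8 CPM at e16.5 and 53.9 CPM at P60 (adjusted p = 0.971). Rdh11 came next at e16.5, with 23.1 CPM, but not at P60, with 7.33 CPM (adjusted p = 0.357).

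The part of RNA from other retinal cells, whose marker sums are given above, was not tested for any of these lists.

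Against retina at e16.5, microglia were lower for 12 and higher for 2 of 18 further Mueller glia genes. Mlc1, a membrane protein of glial endfeet, was at 0 in microglia and 2.76 CPM in retina, and Hes5, a Notch target, at 1.72 and 159 CPM. Cd9, a tetraspanin, was 18.3-fold higher in microglia (adjusted p = 1.21e-05) and Abca8a, a lipid transporter, was at 5.47 against 0.0969 CPM. Of 7 astrocyte genes 5 were lower and Nes was 2.82-fold higher, while Aldh1l1, the astrocyte folate enzyme, was at 0 against 4.83 CPM. Filament genes gave 5 lower and 1 higher of 9. Retinoid genes gave 4 lower and 2 higher of 8, with Stra6, a retinol-uptake receptor, at 0 against 4.70 CPM and Rdh5 5.98-fold higher. Wnt genes gave 4 lower and 2 higher of 6.

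Ion transport genes did not lean to retina in that comparison. Of 12 tested, 4 were higher in microglia and 3 lower. Kcnj2, the inward rectifier Kir2.1, was at 69.1 against 0.883 CPM (adjusted p = 0.00015), beside the excess of Kcnj10. Trpv4, a cation channel, was also higher, and Car2, a cytosolic carbonic anhydrase, 5.41-fold lower. Glutamate genes split, 3 higher and 3 lower of 9. Glud1, glutamate dehydrogenase, was 5.44-fold higher, while Slc38a3, a glutamine exporter of Mueller glia, was 41.6-fold lower. Lipoprotein genes were mostly higher, 4 of 7 with 1 lower, as were gliosis genes, 5 of 8 with 1 lower. All these counts stand against 33.1% of genes higher and 30.1% lower.

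The genes whose pattern over the 14 libraries lay closest to each member were found by the root mean square difference of centred log2(CPM + 0.1) among 10076 genes with a mean of at least 10 CPM. For Slc1a3 these were Ndufb7, Acap3 and Ankrd54 (0.48 to 0.55), and for Glul Coq10b, Tmbim6 and Dnajc28 (0.51 to 0.55). Vim was followed by Tmod2, Ctbp1 and Soga3 (0.57 to 0.63), Dkk3 by Tmtc2, Ncam1 and Ap2s1 (0.63 to 0.85) and Kcnj10 by Deptor, Tnip2 and Polr2a (0.66 to 0.72). The closest genes lay farther off for the other 5. They were Slitrk6, Jrk and Zfp423 for Car14 (0.96 to 1.23), Car8, Stk35 and Calb1 for Aqp4 (1.03 to 1.15) and Alpl, Tmem59l and Eef1a2 for Clu (1.09 to 1.45). For Rlbp1 they were Plch2, Tmem215 and Impdh1 (1.14 to 1.28) and for Gfap Chd5, Scn1a and Ncald (1.15 to 1.19). Among the 10 genes the closest pair was Dkk3 and Vim, at 1.46, farther apart than any member from its closest gene outside the set. The outside genes were the closest of 10076, and members were compared with far fewer, so the sizes cannot be set against each other. The 9 microglia libraries share their tissue, as do the 5 of retina, and all these differences include that.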

How the data were processed

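The deposited table gives, for 20902 genes and 14 libraries, estimated counts and FPKM made by the authors, with their adjusted p-values and log2 fold changes, per the file headers. Per the submitters' processing notes the tools were Salmon 0.9.1 and DESeq2 1.20.0 and the build GRCm38.p6; the settings used are not given in the sources used here. All genes in the table have at least 10 counts in some library. Amplified low-input cDNA without stated molecular identifiers means that counting intervals cover counting error only.

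Counts were rounded and tested with edgeR 4.0.16 (R 4.3.3): TMM, filterByExpr, quasi-likelihood F test, Benjamini-Hochberg over all genes tested, threshold 0.05, with the 9 microglia libraries in 1 fit and the 6 libraries of e16.5 in another. SE is the absolute log2 fold change over the root of F. With 1 retina library at P7 and P60, log2 ratios of CPM with 0.1 CPM added were used, called at 2-fold. The scripts were tested on simulated counts. Gene positions came from GENCODE M21. DESeq2 1.42.0, limma 3.58.1 (voom), other scalings and filters, gene length, a replicate block and leaving out libraries were alternatives. Replicate numbers were not used to pair samples.

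All 10 genes are named throughout. Of each further list, for P60 against e16.5 and for microglia against retina at e16.5, up to 2 genes that rose and 2 that fell with the largest change were eligible to be named, or the 2 most abundant where none passed. Genes called in the steps through P7 were named likewise (Apoe, Abca1, Slc12a2). For likeness of pattern, the 3 closest genes per member are given. The members and lists were chosen with earlier results of these data known. A gene that the naming rule would pick from the further lists is not reported here.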

Additional observations from a re-analysis of the deposited data

Results flagged for a closer look

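For Slc1a3 every microglia library at P60 was above those of earlier ages while the single P60 retina library was slightly below the earlier retina libraries, within 2-fold. From P7 to P60 the log2 ratio was 1.04 in microglia and -0.33 in whole retina, a difference of 1.37. From e16.5 to P60 it was 2.21 in microglia and -0.33 in retina, a difference of 2.54. Retina has 1 library at P7 and at P60, and the difference was not tested.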

How the results depend on the processing

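Of the comparisons across the whole set of 10 genes, that between microglia and retina at e16.5 was the steadiest: 6 genes were called, and 6 to 8 under the alternatives. The P60 minus e16.5 count in microglia was the least steady, 4 genes with a range of 0 to 4 when 1 library was left out, 1 with the gene length offset and 0 with only the 2 groups compared, where fewer samples enter the fit. For P7 minus e16.5 the count was 0, and 1 with DESeq2 or with only the 2 groups compared. For P60 minus P7 it was 0, 1 with DESeq2 and 0 to 1 when 1 library was left out, the 1 arising without P60 replicate 2. In retina from P7 to P60, total counts alone left 5 of 8 genes past 2-fold. The median share of the retina level at P7, 9.79%, was 7.75% with total counts alone and 12.4% in FPKM. Where the text above names no cause, the cause was not tested.

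Directions reversed only for genes that had not passed in the same comparison. Aqp4 between P7 and P60 (-0.03 on the log2 scale) was 0.24 with total counts alone, 0.02 with the replicate block and ran from -0.49 to 0.34 when 1 library was left out (0.34 without P7 replicate 3, and 0.1 and 0.21 without P60 replicates 1 and 3). Car14 between P7 and P60 (0.45) was -0.9 with limma-voom, -0.84 with the replicate block, and -7.02 to 2.32 when 1 library was left out, with -7.02 and -0.14 without P60 replicate 1 and P7 replicate 3. Car14 ran from -2.73 to 1.59 for P7 minus e16.5 and from -7.86 to 2.03 for P60 minus e16.5 in the same way, with 1.59 and 2.03 without e16.5 replicate 1 and 0.19 and 0.18 without P60 replicates 2 and 3. Kcnj10 between P7 and P60 ran from -0.01 (without P60 replicate 2) to 0.78, and Glul for P60 minus e16.5 from -0.04 (without P60 replicate 3) to 0.25. Glul in microglia minus retina at e16.5 was -0.07 with total counts alone and -1.13 with the gene length offset. Of 264 single-gene values with 1 library left out, 227 kept direction and call, 22 lost the call and 4 gained it. Of 265 values under other alternatives, 240 kept both, 9 lost the call and 10 gained it.

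The deviations of same-numbered microglia libraries correlated at 0.05 to 0.28, below the 0.1 set for pairing in at least 1 pair of each age comparison, although every microglia library correlated best with its own number. With the replicate block the 3 age comparisons called 0, 0 and 4 of the genes, and microglia minus retina at e16.5 called 7. Over all genes the block called 44, 367, 757 and 9475, against 32, 217, 538 and 10206 without it. DESeq2 called 328, 1249 and 1902 genes in the age comparisons the gene length offset 1, 64 and 239, and only the 2 groups compared 143, 82 and 227. For P7 minus e16.5, limma-voom called 60 and a filter of 5 CPM 58. Leaving out 1 library gave 0 to 61, 41 to 217 and 174 to 530 genes. Total counts alone moved the median log2 difference over all genes from 0.07 to 0.29 for P60 minus P7, from 0.06 to 0.25 for P60 minus e16.5 and from -0.13 to -0.51 for microglia minus retina. At e16.5 counts of 0 to 3 in microglia left Rlbp1, Gfap and Clu with bounds or wide intervals only.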
